A study of Mus musculus with 51 samples.

Results

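The cytochrome P450 genes of families 1 to 4 were followed across 6 groups of mouse liver RNA. Members were taken by name from the authors' expression matrix, as every gene symbol made of Cyp, a family digit from 1 to 4, a subfamily letter and a number. This gave 72 members among 33773 rows, in 21 subfamilies, with 15 in Cyp2c, 8 each in Cyp2d and Cyp4f, 7 each in Cyp2j and Cyp3a, 5 in Cyp2b and 4 each in Cyp2a and Cyp4a. Symbols that end in a further letter, such as Cyp3a41a and Cyp4a12a, lie outside this rule. The label holds for what was measured: in all 21 libraries these genes included some of the most abundant liver P450 mRNAs, with Cyp2e1, Cyp3a11, Cyp2c29 and Cyp2d9 among the 10 highest on average.

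Cytochromes P450 are haem enzymes of the endoplasmic reticulum that insert 1 oxygen atom into drugs, toxins, steroids, bile acids and fatty acids, with electrons passed on by the reductase Por. Families 1 to 3 handle mainly foreign compounds and steroids, and family 4 mainly fatty acids. Most are made in hepatocytes, many under the control of HNF4a and of the nuclear receptors CAR, PXR and PPARA, and several differ between male and female mice. FoxA1, FoxA2 and FoxA3 are forkhead transcription factors that bind liver enhancers.

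Hepatocyte RNA came from 4 groups. The FoxA triple null libraries (n = 4) came from adult FoxA1 L/L, FoxA2 L/L, FoxA3-/- mice given, at 8 weeks of age, adeno-associated virus 8 with Cre recombinase under the hepatocyte-specific Tbg promoter. The FoxA3 null libraries (n = 4) are their controls, which by the design text carried the same alleles and received virus with GFP, so both groups lack FoxA3 throughout the body and for life. FoxA1/A2 lox libraries (n = 3) carry the floxed FoxA1 and FoxA2 alleles without deletion, and FoxA1/A2 Cre alfp libraries (n = 4) carry the FoxA1/A2 deletion with FoxA3 present; the labels give the driver only as alfp and no age or virus for either group. Whole-liver RNA came from 2 HNF4a control libraries and 4 labelled HNF4a null, which the design text describes as livers depleted of HNF4a in adult mice. The labels do not say that libraries are separate animals, so p-values measure only the spread between these libraries, which may be technical.

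The unit is RPKM, reads scaled to transcript length and to library size, so levels can be compared between genes. Absolute depth is unknown; relative depth, from the steps between low values, was 1 to 1.11 in liver and 2.01 to 4.06 in hepatocyte libraries. Differences are of log2(RPKM + 1), which understates changes of weakly expressed genes, and a gene was called when its adjusted p was under 0.05 and its difference at least 1 either way. Calls use the uncorrected difference, also where differences are given relative to the median over all genes. In all, 49 members reached 1 RPKM in 3 hepatocyte libraries and were tested there, and 44 of these were tested in liver. The other 23 stayed at or below 1.4 RPKM in every library; they include Cyp1a1, Cyp1b1, Cyp2s1, Cyp3a16, Cyp3a44 and Cyp4x1. Members of a subfamily are near-copies of each other and can share reads, so single symbols of Cyp2a, Cyp2b, Cyp2c, Cyp2d, Cyp3a and Cyp4a are uncertain and subfamily sums are given beside them.

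Among the targeted genes, Foxa3 reached at most 0.0114 RPKM in any library of the FoxA3 null and triple null groups, and at least 19.04 RPKM in the rest. Foxa2 fell by 3.39 and Foxa1 fell by 1.13 on the log2 scale between FoxA3 null and triple null, and by 2.58 and 1.76 between lox and Cre alfp. Hnf4a RNA goes against its label: it was 125.8 and 118.2 RPKM in the controls and 487.4 to 545.2 RPKM in the HNF4a-null-labelled libraries. A value over the whole gene does not show whether part of it is deleted. Hepatocyte markers summed to 37100 to 44200 RPKM in triple nulls and 64100 to 65000 RPKM in FoxA3 nulls, and to 38900 to 41700 RPKM in liver controls and 13400 to 15100 RPKM in the HNF4a-null-labelled libraries. Of the 12 markers, 1 was called higher, 4 lower and 7 not at all in triple nulls, where 4.17% and 3.95% of all genes were higher and lower. In liver 1 was called higher, 7 lower and 4 not at all, where 8.58% and 5.95% of all genes were higher and lower.

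Promoter sequences are shown first because many of the members that change lie in gene clusters of close copies; Cyp2u1, Cyp4v3 and Cyp2r1 have no P450 neighbour. Windows of 300 bases around annotated starts (250 before, 50 after; RefSeq, GRCm38.p6) were found for 60 of the 72 members. A string typical of HNF4A sites, CAAAGTCCA on either strand, stood in 8 of the 60 windows and in 0.475% of 32851 windows of all genes. The 8 are Cyp2c40, Cyp2c65, Cyp2c67, Cyp2c68, Cyp2c69, Cyp2c70, Cyp3a11 and Cyp3a16, so 6 of them lie in the Cyp2c cluster. Strings typical of FOXA sites, TGTTTAC or TGTTTGC, stood in 9 of the 60 and in 8.48% of all windows. Neither string contains the other. Both strings together were found in Cyp2c65, Cyp3a11 and Cyp3a16. A match is a string of letters and no evidence of binding.

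The 250 bases before the start are printed for Cyp2c67, Cyp2c68 and Cyp2c69, members of 1 cluster whose RNA responded differently, for Cyp2c70 and Cyp3a11, called lower in both the triple null and liver and holding the same string, and for Cyp2c50, the member with the largest fall in triple nulls, which holds neither string in its window. Capitals mark CAAAGTCCA and, in Cyp3a11, TGTTTAC. The coordinates are chr19:39649043-39649292 (minus strand) for Cyp2c67, chr19:39741102-39741351 (minus) for Cyp2c68, chr19:39886770-39887019 (minus) for Cyp2c69, chr19:40187287-40187536 (minus) for Cyp2c70, chr5:145879855-145880104 (minus) for Cyp3a11 and chr19:40089429-40089678 (plus) for Cyp2c50.
Cyp2c67: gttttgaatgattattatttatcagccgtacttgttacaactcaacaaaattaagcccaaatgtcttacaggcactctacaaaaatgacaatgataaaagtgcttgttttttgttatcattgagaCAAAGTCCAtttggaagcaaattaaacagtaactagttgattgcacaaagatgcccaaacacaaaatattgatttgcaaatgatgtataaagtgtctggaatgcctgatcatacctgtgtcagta
Cyp2c68: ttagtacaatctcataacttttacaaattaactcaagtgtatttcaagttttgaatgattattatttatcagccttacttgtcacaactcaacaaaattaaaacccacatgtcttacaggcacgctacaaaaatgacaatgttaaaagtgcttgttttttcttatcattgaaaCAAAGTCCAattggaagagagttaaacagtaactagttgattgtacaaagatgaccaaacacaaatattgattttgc
Cyp2c69: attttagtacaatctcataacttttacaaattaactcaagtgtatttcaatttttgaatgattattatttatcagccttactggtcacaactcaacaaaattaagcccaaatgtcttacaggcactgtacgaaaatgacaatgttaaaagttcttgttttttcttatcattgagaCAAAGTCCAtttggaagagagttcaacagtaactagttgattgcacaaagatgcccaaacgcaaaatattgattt
Cyp2c70: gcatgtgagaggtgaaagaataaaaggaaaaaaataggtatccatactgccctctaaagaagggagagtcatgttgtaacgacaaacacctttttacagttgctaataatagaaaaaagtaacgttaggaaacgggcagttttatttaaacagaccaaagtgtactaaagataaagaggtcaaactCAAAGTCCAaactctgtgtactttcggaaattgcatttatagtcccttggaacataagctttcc
Cyp3a11: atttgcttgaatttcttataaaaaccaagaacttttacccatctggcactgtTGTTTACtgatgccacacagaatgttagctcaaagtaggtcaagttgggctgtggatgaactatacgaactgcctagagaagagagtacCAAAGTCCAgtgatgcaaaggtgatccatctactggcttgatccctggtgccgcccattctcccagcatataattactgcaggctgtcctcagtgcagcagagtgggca
Cyp2c50: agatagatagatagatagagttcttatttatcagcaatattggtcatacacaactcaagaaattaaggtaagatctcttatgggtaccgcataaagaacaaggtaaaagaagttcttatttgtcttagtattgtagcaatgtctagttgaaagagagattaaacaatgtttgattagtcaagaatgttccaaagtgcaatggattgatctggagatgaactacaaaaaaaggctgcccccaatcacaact
Over the aligned columns, the Cyp2c67, Cyp2c68 and Cyp2c69 sequences were 91.7% to 93.5% identical, and Cyp2c50 was 64.6% to 67.1% identical to them. Cyp2c67, Cyp2c68 and Cyp2c69 share the HNF4A-type string, yet in triple nulls only Cyp2c68 and Cyp2c69 were called higher, while in liver only Cyp2c67 of the pair tested there was called lower. Of the 11 members called lower in triple nulls, 7 have a window, of which 1 holds a FOXA string and 2 the HNF4A string. Of the 7 called higher, 6 have a window, of which 0 hold a FOXA string and 3 the HNF4A string. Of the 31 not called, 27 have a window, with 4 and 1. No factor's binding was measured in these windows here.

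Cyp2e1, which oxidises ethanol and acetaminophen, was the most abundant member in all hepatocyte libraries. Its level was 5321, 5814 and 7211 RPKM in lox, 8666, 5620, 6186 and 13170 in Cre alfp, 5281, 5073, 6974 and 7481 in FoxA3 nulls and 10220, 9239, 11650 and 11510 in triple nulls. All 4 triple null libraries lay above all FoxA3 null libraries, with a log2 difference of 0.79 (SE 0.23, adjusted p 0.0186), short of the difference needed for a call. It made up 54% to 57.5% of the summed RPKM of all members in triple nulls against 31.1% to 43.6% in FoxA3 nulls, 39.5% to 47.8% in lox and 41.5% to 57.8% in Cre alfp. In Cre alfp it varied most, from 5620 in replicate 2 to 13170 RPKM in replicate 4. These are bulk samples, in which fewer cells of a type and less RNA per cell cannot be told apart.

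The summed RPKM of all members was 17095 to 21446 in triple nulls, 15762 to 18486 in FoxA3 nulls, 13555 to 22776 in Cre alfp and 13483 to 15101 in lox, so lox lay below FoxA3 null and the triple null, and the other pairs of groups overlapped. The makeup differed. Cyp2c summed to 1500 ± 227 RPKM (SD, n = 4) in triple nulls and 2350 ± 422 in FoxA3 nulls (n = 4), 2090 ± 377 in Cre alfp (n = 4) and 1700 ± 77.6 in lox (n = 3). Cyp3a summed to 1400 ± 243 RPKM in triple nulls and 2460 ± 249 in FoxA3 nulls, whereas Cyp2b summed to 31.4 ± 23.7 and 4.84 ± 3.48, and Cyp4f to 378 ± 41.6 and 255 ± 15.7 (each n = 4). Cyp2d summed to 2090 ± 246 and 2360 ± 86.1 RPKM, and Cyp4a to 286 ± 90.5 and 344 ± 127 (each n = 4), although single genes of both were called.

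**Figure D1:**
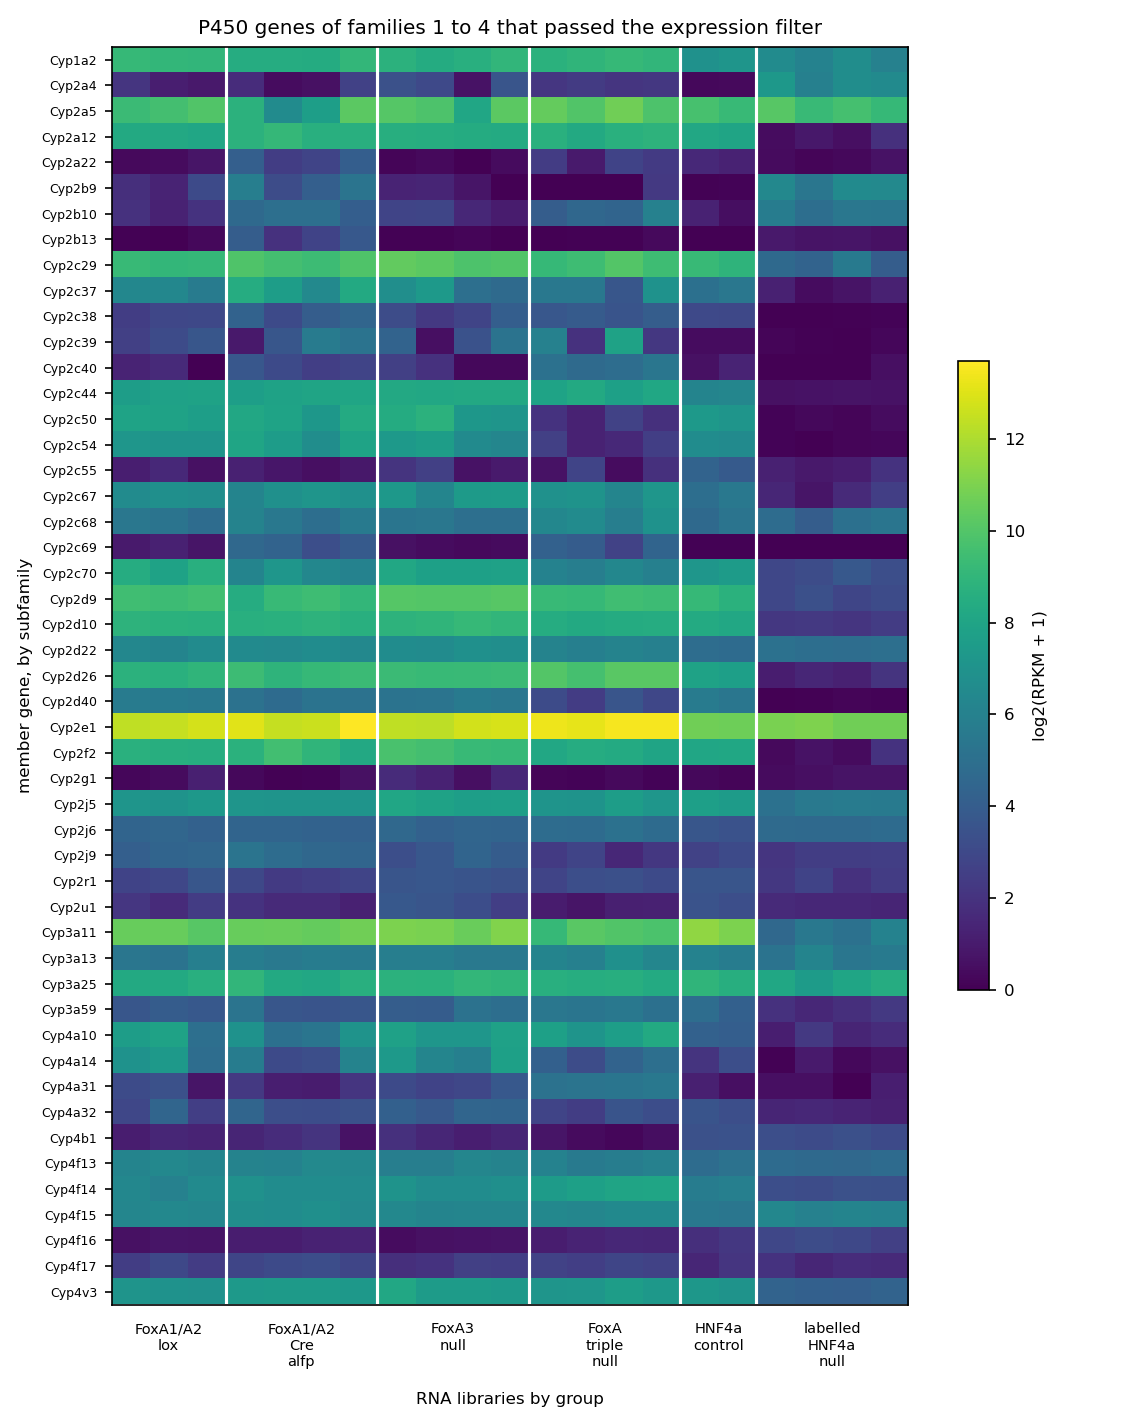
Heat map of log2(RPKM + 1) for the 49 members that passed the expression filter (rows, by subfamily) in the 21 RNA libraries (columns, by group; white lines part the groups). Cyp2e1 is the brightest row in hepatocytes, Cyp2c50 and Cyp2c54 darken in triple nulls, and most Cyp2c and Cyp2d rows darken in the HNF4a-null-labelled libraries while Cyp2a4, Cyp2b9 and Cyp2b10 brighten.

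Loss of FoxA1 and FoxA2 on top of FoxA3 changed members in both directions. In triple null against FoxA3 null, 7 members were called higher and 11 lower of 49 tested, 36.7% of them, where 8.11% of all 11500 genes tested were called, 4.17% higher and 3.95% lower. In Cre alfp against lox, where the same genes were deleted with another driver and with FoxA3 present, 6 were called higher and 1 lower, 14.3% against 2.38% of all genes (1.29% higher, 1.1% lower). The calls shared between both deletions were Cyp2c69, Cyp2c40, Cyp2b10 and Cyp2a22, higher in both, and Cyp2c70, lower in both. These are 5 of the 18 and 5 of the 7 calls, and the comparisons share no libraries. The share of all genes called in both is not given here, so this overlap is a description only. The Cyp2c40 call in Cre alfp was lost when any 1 library of lox or Cre alfp was left out. Cyp2c69 and Cyp2a22 passed the filter only through the 2 deletion groups, where they are high, Cyp2b13 only through Cre alfp and Cyp2g1 only through FoxA3 null, so their calls add no support to these counts. The median member difference was -0.2 in the first comparison and 0.19 in the second, against 0.045 and 0.017 over all genes tested.

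**Figure D2:**
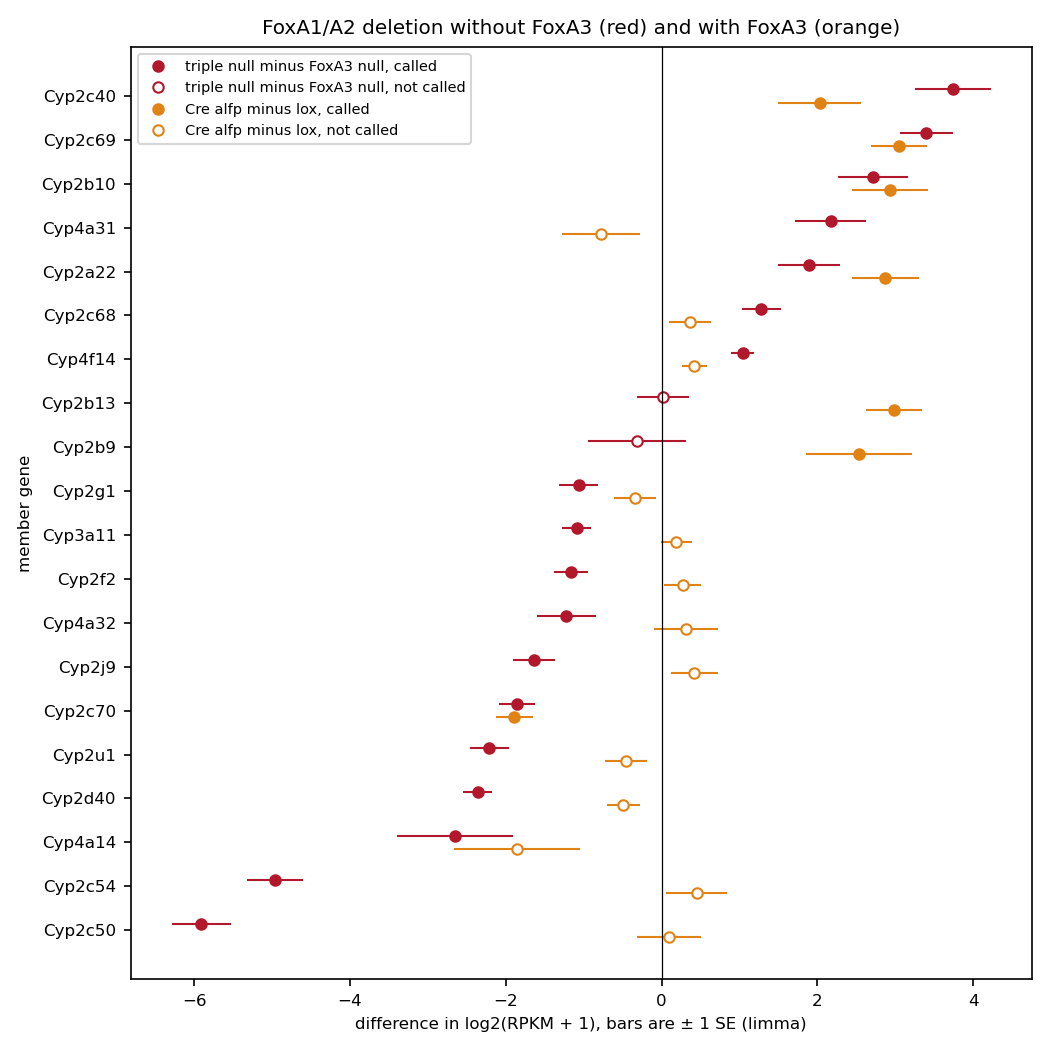
Difference in log2(RPKM + 1) between triple null and FoxA3 null (red) and between Cre alfp and lox (orange) for the 20 members called in either, with bars of ± 1 SE from limma; filled points were called, open points were not. Cyp2c50 and Cyp2c54 lie at -5.91 and -4.96 in red and near 0 in orange, Cyp2b13 and Cyp2b9 show the opposite, and Cyp2c69, Cyp2b10 and Cyp2a22 lie above 1 in both.

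The Cyp2c genes, which act on drugs and on arachidonic acid, held the extremes of both directions within 1 cluster on chromosome 19. Its order in the gene table is Cyp2c55, Cyp2c65, Cyp2c66, Cyp2c29, Cyp2c39, Cyp2c38, Cyp2c67, Cyp2c68, Cyp2c40, Cyp2c69, Cyp2c37, Cyp2c54, Cyp2c50 and Cyp2c70, and Cyp2c44 lies apart on the same chromosome. Of 13 Cyp2c members tested, 3 were called higher and 3 lower in triple nulls, and the 3 lower are the last 3 of the cluster.

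Cyp2c50 was 338, 437, 150.2 and 138 RPKM in FoxA3 nulls and 2.97, 1.45, 5.47 and 2.77 RPKM in triple nulls. The groups did not overlap, and the mean was 83.9-fold lower, with a log2 difference of -5.91 (SE 0.38, adjusted p 4.53e-08). Between lox and Cre alfp it was not called: lox had 248, 232 and 204 and Cre alfp 294, 249, 148 and 325 RPKM, a log2 difference of 0.10 (SE 0.41, adjusted p 0.939). The difference between both effects was -6.01 (SE 0.55, adjusted p 8.24e-06).

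Its neighbour Cyp2c54 also fell. It was 163, 195, 93.8 and 77.6 RPKM in FoxA3 nulls and 4.94, 1.47, 2 and 4.78 in triple nulls, with a log2 difference of -4.96 (SE 0.36, adjusted p 1.91e-07), and 143, 136 and 133 in lox and 263, 188, 102 and 247 in Cre alfp, with no call. The difference between both effects was -5.41 (SE 0.54, adjusted p 1.61e-05). Cyp2c50 and Cyp2c54 are close copies, so reads may be split between them, but both fell.

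Cyp2c70, the enzyme that makes the muricholic acids of mouse bile, fell in both deletions. It was 298, 219, 215 and 226 RPKM in FoxA3 nulls and 65.3, 57.2, 79.1 and 60.8 in triple nulls, a log2 difference of -1.85 (SE 0.23, adjusted p 3.16e-05). It was 351, 237 and 403 RPKM in lox and 72.5, 143, 80.01 and 67.1 in Cre alfp, a log2 difference of -1.89 (SE 0.24, adjusted p 0.000336). Every library of both deletions lay below every undeleted one, and the effects differed by 0.04 (SE 0.33, adjusted p 0.953); this does not show that the effects are equal.

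Cyp2c69 and Cyp2c40 rose from low levels. Cyp2c69, which passed the filter only through the deletion groups, was 0.504, 0.361, 0.264 and 0.325 RPKM in FoxA3 nulls and 18.3, 15, 5.53 and 20.1 in triple nulls, a log2 difference of 3.40 (SE 0.34, adjusted p 4.2e-06), and 0.964, 1.41 and 0.696 in lox and 24.1, 19.7, 8.77 and 13.8 in Cre alfp, a log2 difference of 3.05 (SE 0.36, adjusted p 0.000187). Cyp2c40, an arachidonic acid hydroxylase, was 5.13, 2.92, 0.212 and 0.223 RPKM in FoxA3 nulls and 33, 25.4, 29.2 and 41 in triple nulls, a log2 difference of 3.74 (SE 0.49, adjusted p 6.49e-05). Its rise in Cre alfp, from 1.55, 2.14 and 0.0125 in lox to 11.9, 7.41, 4.86 and 6.01 RPKM, was called with a log2 difference of 2.03 (SE 0.53, adjusted p 0.0405), but this call was lost when any 1 of the 7 libraries was left out (adjusted p 0.0519 to 0.145), with a pseudocount of 0.1 (0.0865), with no filter (0.103) and with only these groups in the fit (0.05). Cyp2c68 rose more modestly, from 38.3, 41.4, 30.7 and 30.7 in FoxA3 nulls to 80.8, 97.3, 57.2 and 124 RPKM in triple nulls, a log2 difference of 1.28 (SE 0.25, adjusted p 0.00173).

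The most abundant Cyp2c gene, Cyp2c29, a target of CAR, was not called in either comparison. It was 1334, 1207, 925 and 1008 RPKM in FoxA3 nulls, 567, 688, 1059 and 699.6 in triple nulls, 594, 537 and 547 in lox and 948, 786, 677 and 976 in Cre alfp. Its effects lay in opposite directions, at -0.59 (SE 0.18) and 0.58 (SE 0.20), and their difference of -1.18 (SE 0.27, adjusted p 0.0102) was called. Cyp2c37 ranged from 11.8 to 127 RPKM within triple nulls and from 25.9 to 164 RPKM within FoxA3 nulls, so its groups overlapped. Cyp2c67, Cyp2c38 and Cyp2c44 also overlapped between these groups, and Cyp2c39 spanned 2.912 to 239.4 RPKM within triple nulls alone.

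**Figure D3:**
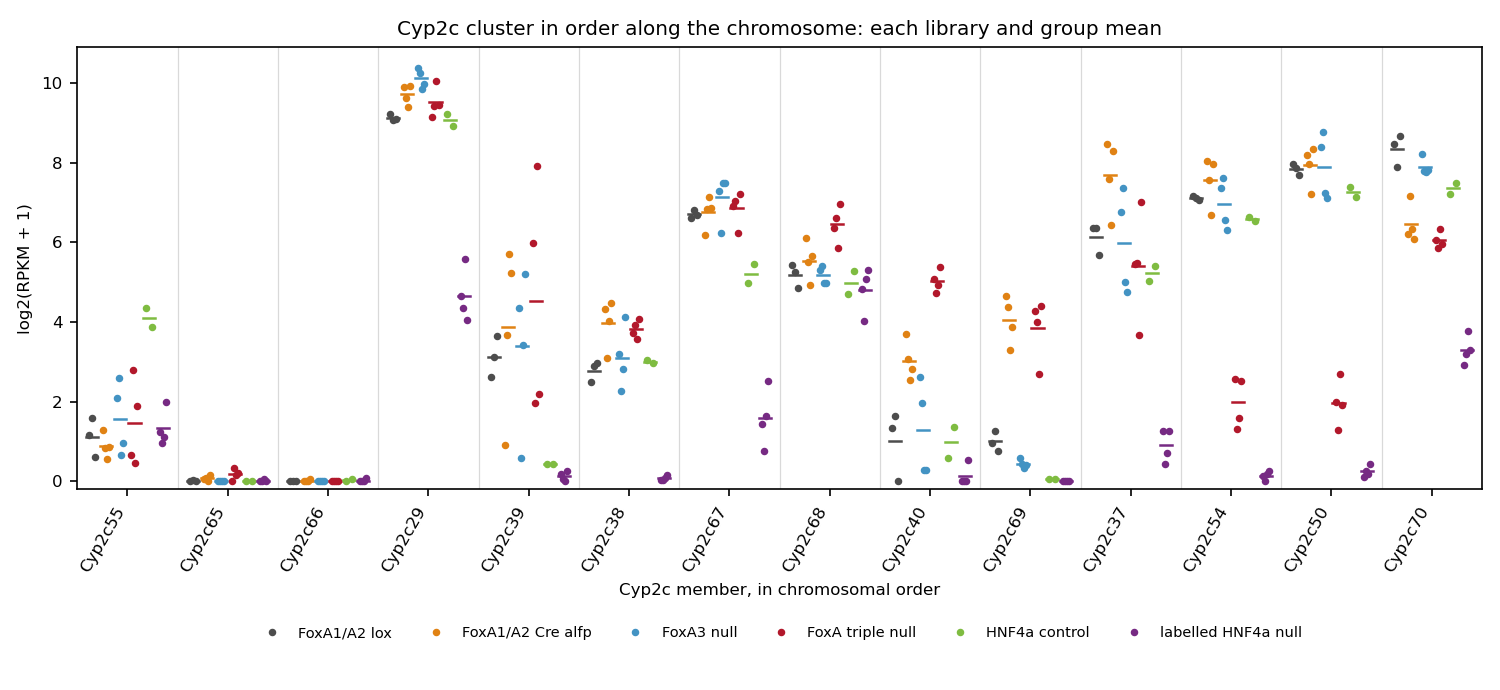
Values of log2(RPKM + 1) for the 14 Cyp2c members of the cluster, in chromosomal order along the x axis. Each point is a library, coloured by group, and each short line a group mean; Cyp2c54 and Cyp2c50 drop in triple nulls, Cyp2c40 and Cyp2c69 rise, and Cyp2c29 stays high in all hepatocyte groups.

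Another cluster, on chromosome 7, holds Cyp2b, Cyp2a, Cyp2f and Cyp2g genes. In Cre alfp Cyp2b10, Cyp2b9 and Cyp2b13 were called higher, and in triple nulls Cyp2b10 was. Cyp2b10, the classic target of CAR, was 5.96, 6.25, 1.82 and 1.03 RPKM in FoxA3 nulls and 15.7, 23.2, 20.03 and 62.5 in triple nulls, a log2 difference of 2.72 (SE 0.45, adjusted p 0.000451). It was 2.94, 1.48 and 3.01 RPKM in lox and 24.8, 31.1, 30.8 and 16.3 in Cre alfp, a log2 difference of 2.93 (SE 0.49, adjusted p 0.00278). Groups did not overlap in either, although triple null replicate 4 stood well above its group.

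Cyp2b13 was at most 0.253 RPKM in every lox, FoxA3 null and triple null library and 15.3, 2.83, 5.66 and 12.8 RPKM in Cre alfp. It thus passed the filter only through Cre alfp, the group where it is high. It rose there by 2.99 (SE 0.36, adjusted p 0.000198), against 0.02 (SE 0.33, adjusted p 0.967) in triple nulls. The difference between both effects was -2.97 (SE 0.49, adjusted p 0.00122). Cyp2b9 was 2.58, 1.53 and 7.4 RPKM in lox, 56.4, 8.23, 17 and 38.1 in Cre alfp, 1.55, 1.71, 0.725 and 0.019 in FoxA3 nulls and 8.6e-04, 0.0214, 1.0e-03 and 3.89 in triple nulls. Its rise in Cre alfp, a log2 difference of 2.54 (SE 0.68, adjusted p 0.0426), lost its call without any 1 of Cre alfp replicates 1, 3 and 4 and lox replicates 1 and 2 (adjusted p 0.067 to 0.162), with a pseudocount of 0.1 (0.228), with no filter (0.108), with only these groups in the fit (0.0866) and with the replicate number as a block (0.0909). The difference between both effects, -2.86 (SE 0.92, adjusted p 0.052), was not called. Both genes are expressed mainly in female mice, as are Cyp2c40 and Cyp2c69.

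Of the Cyp2a genes, Cyp2a22 rose in both deletions, the only groups through which it passed the filter. It was 0.142, 0.25, 0.0198 and 0.343 RPKM in FoxA3 nulls and 4.45, 0.972, 5.74 and 4.09 in triple nulls, a log2 difference of 1.89 (SE 0.40, adjusted p 0.00279), and 0.294, 0.306 and 0.735 in lox and 16.8, 4.64, 5.9 and 16.3 in Cre alfp, a log2 difference of 2.87 (SE 0.43, adjusted p 0.00123). Cyp2a5, a coumarin hydroxylase, varied widely within groups and was not called in either deletion. It spanned 97.2 to 1203 RPKM in Cre alfp and 271 to 1200 RPKM in FoxA3 nulls. Its near-copy Cyp2a4, a testosterone hydroxylase, was 9.47, 7.22, 0.571 and 11.2 RPKM in FoxA3 nulls, 3.51, 4.22, 3.34 and 3.68 in triple nulls, 3.24, 1.2 and 0.926 in lox and 2.29, 0.392, 0.513 and 5.37 in Cre alfp, with no call.

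Cyp2a12 was not called, at 384, 363, 338 and 324 RPKM in FoxA3 nulls and 418, 312, 416 and 468 in triple nulls. Cyp2f2, which activates naphthalene, fell from 858, 763, 588 and 570.1 RPKM in FoxA3 nulls to 290.5, 355, 331 and 255 in triple nulls, a log2 difference of -1.16 (SE 0.22, adjusted p 0.00128). It was not called in Cre alfp, and the difference between both effects was -1.43 (SE 0.32, adjusted p 0.00995). Against lox, at 413, 384 and 373 RPKM, the triple null was lower by less than the call needs. Cyp2g1 passed the filter only through FoxA3 null, where it was 2.25, 1.46, 0.457 and 1.92 RPKM, against 0.137, 0.109, 0.294 and 0.116 in triple nulls and 0.187, 0.307 and 1.33 in lox. Its fall, a log2 difference of -1.06 (SE 0.25, adjusted p 0.00592), lost its call without FoxA3 null replicate 1 or 4 (-0.91 and -0.96) and with quantile normalization (-0.97).

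**Figure D4:**
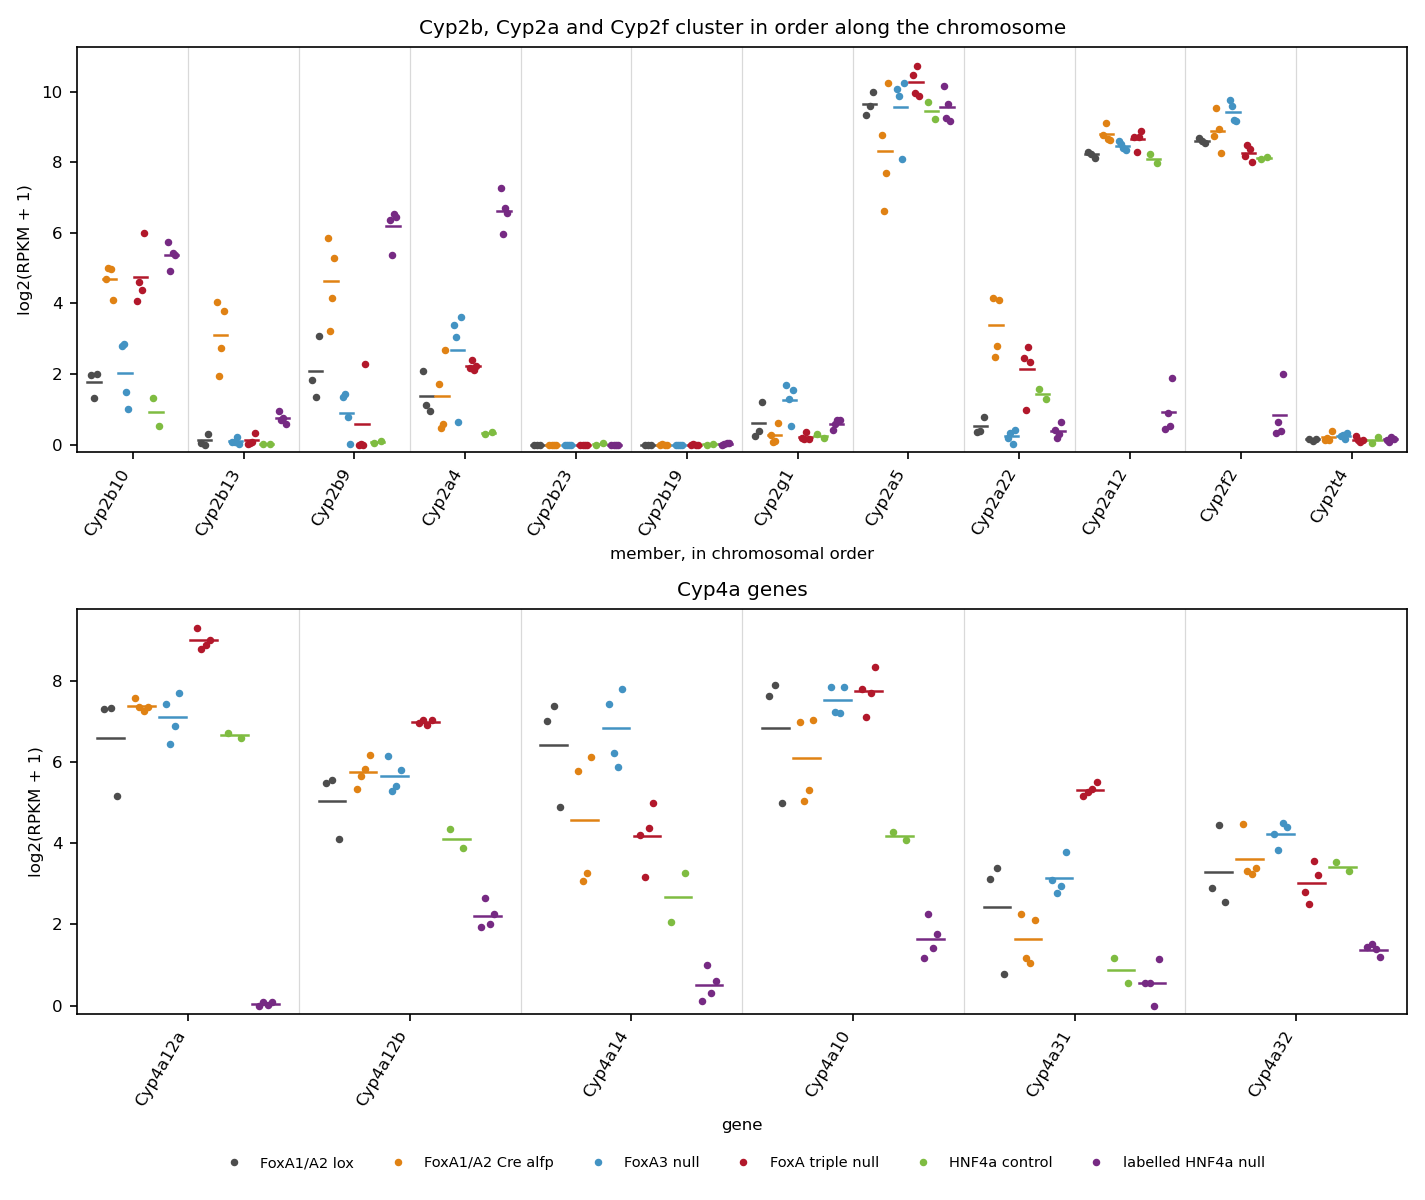
Values of log2(RPKM + 1) for the members of the chromosome 7 cluster in chromosomal order (upper panel) and for 6 Cyp4a genes (lower panel; Cyp4a12a and Cyp4a12b are not members and are shown for comparison). Each point is a library, coloured by group, and each short line a group mean; Cyp2b13 is raised only in Cre alfp among the hepatocyte groups, Cyp2b10 in Cre alfp and triple null, and Cyp4a31 in triple nulls.

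Cyp2d genes lie in a cluster on chromosome 15 and include the male-biased testosterone hydroxylase Cyp2d9. Only Cyp2d40 was called, from 36.1, 37.4, 47.8 and 41.4 RPKM in FoxA3 nulls to 7.76, 4.36, 11.1 and 6.58 in triple nulls, a log2 difference of -2.36 (SE 0.19, adjusted p 6.75e-07). It was 50.8, 46.8 and 43.3 in lox and 35.2, 27, 36.7 and 34.4 RPKM in Cre alfp, and the difference between both effects was -1.87 (SE 0.29, adjusted p 0.000713). The other Cyp2d members tested differed by less than the call needs. Cyp2d9 differed by -0.75 (SE 0.16, adjusted p 0.00296), Cyp2d10 by -0.59 (SE 0.09, adjusted p 0.000317), Cyp2d22 by -0.69 (SE 0.11, adjusted p 0.000267) and Cyp2d26 by 0.72 (SE 0.14, adjusted p 0.00124). For each of them the triple null and FoxA3 null libraries did not overlap, with Cyp2d9, Cyp2d10 and Cyp2d22 lower and Cyp2d26 higher. The share of all genes without overlap between these groups is not given here, so this is a description only.

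Cyp2u1 and Cyp2j9 fell in triple nulls and were not called in Cre alfp. Cyp2u1, a fatty acid hydroxylase, was 12.6, 11.1, 8.32 and 4.77 RPKM in FoxA3 nulls and 1.08, 0.698, 1.3 and 1.36 in triple nulls, a log2 difference of -2.21 (SE 0.25, adjusted p 1.7e-05). Cyp2j9 was 8.71, 12.1, 20.2 and 14.7 RPKM in FoxA3 nulls and 3.95, 6.02, 1.83 and 3.63 in triple nulls, a log2 difference of -1.64 (SE 0.27, adjusted p 0.000496). Their effects differed from those in Cre alfp by -1.75 (SE 0.37, adjusted p 0.00685) and -2.06 (SE 0.40, adjusted p 0.00437). Cyp2j5, an arachidonic acid epoxygenase, was not called, at 269, 234, 204 and 211 RPKM in FoxA3 nulls against 135, 129, 197 and 145 RPKM in triple nulls, and Cyp2r1, a vitamin D hydroxylase, was not called, at 11.4, 11.9, 10.7 and 9.71 RPKM in FoxA3 nulls against 6.02, 8.66, 9.02 and 7.52 RPKM in triple nulls.

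Cyp3a11, the main drug-metabolising Cyp3a of mouse liver and a PXR target, was lower in triple nulls than in FoxA3 nulls. It was 2005, 1921, 1524 and 2168 RPKM in FoxA3 nulls and 583, 1172, 998 and 896 in triple nulls, a 2.09-fold fall with a log2 difference of -1.09 (SE 0.19, adjusted p 0.000575). The groups did not overlap. The call rested on triple null replicate 1, without which the difference was -0.89 (adjusted p 0.000734). In lox it was 1434, 1432 and 1103 and in Cre alfp 1427, 1481, 1398 and 1687 RPKM, and the difference between both effects was -1.28 (SE 0.28, adjusted p 0.00728). Cyp3a25 and Cyp3a59 were not called in either deletion. Cyp1a2, a target of the aryl hydrocarbon receptor, was not called either, at 449.6, 335, 390.1 and 511 RPKM in FoxA3 nulls and 429, 504, 568 and 509 in triple nulls.

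The Cyp4a fatty acid hydroxylases, targets of PPARA, moved apart. Cyp4a14 was 169.9, 73.7, 58 and 221 RPKM in FoxA3 nulls and 17.3, 7.97, 19.8 and 30.9 in triple nulls, a log2 difference of -2.65 (SE 0.75, adjusted p 0.0165), a call lost without triple null replicate 2 (adjusted p 0.0526) and with no filter (0.0514). Its neighbour Cyp4a10 was not called, at 227, 148, 147 and 229 RPKM in FoxA3 nulls against 219, 136, 206 and 323 RPKM in triple nulls. Cyp4a31 rose from 7.49, 5.79, 6.67 and 12.7 to 34.4, 37.2, 39 and 44.4 RPKM, a log2 difference of 2.17 (SE 0.46, adjusted p 0.00305), and its effect exceeded that in Cre alfp by 2.95 (SE 0.68, adjusted p 0.0114). Cyp4a32 was lower, at 5.94, 4.7, 10.7 and 8.28 against 17.7, 13.2, 21.4 and 20.1 RPKM, a log2 difference of -1.22 (SE 0.38, adjusted p 0.0267), but this call was lost without any 1 of triple null replicates 1 and 2 or any FoxA3 null replicate except replicate 2, with the replicate number as a block and with no filter (adjusted p 0.0526 to 0.0802, 0.0563 and 0.0735). Against lox the triple null was not called for Cyp4a32, at -0.28 (SE 0.41, limma adjusted p 0.613).

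The 4 Cyp4a members are near-copies, and their sum overlapped between groups. Outside the members, Cyp4a12a rose by 1.88 (SE 0.39, adjusted p 0.00261) and Cyp4a12b by 1.33 (SE 0.29, adjusted p 0.00314). Cyp4f14, which acts on leukotrienes and vitamin E, rose from 129, 100.3, 100.4 and 110 RPKM in FoxA3 nulls to 179, 218, 252 and 262 in triple nulls, a log2 difference of 1.04 (SE 0.15, adjusted p 0.000138), with no overlap. Its difference lay near the minimum, and leaving out triple null replicate 3 or 4 or FoxA3 null replicate 2 or 3 ended the call, at 0.97 to 1. Cyp4f16, at 0.356 to 1.832 RPKM, was higher in every library of both deletions than in every undeleted one, with differences of 0.74 and 0.53 that are below the call. It passed the filter only through the deletion groups.

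The remaining hepatocyte comparisons share libraries with those above. Over all genes the median difference was 0.132 in triple null against lox, 0.125 in triple null against Cre alfp and 0.103 in FoxA3 null against lox, and member differences are given relative to it. In triple null against lox 10 members were called higher and 7 lower (34.7%, against 13.5% of all genes, 7.72% higher and 5.81% lower). Of the 10, Cyp2a22 and Cyp2c69 passed the filter only through the deletion groups, where they are high. The largest were Cyp2c40 at 3.89, Cyp2b10 at 2.86 and Cyp4a31 at 2.75, and Cyp2c50 at -5.99, Cyp2c54 at -5.25 and Cyp2d40 at -2.70. In triple null against Cre alfp, 6 were called higher and 8 lower (28.6%, against 10.3% of all genes, 5.26% higher and 5.03% lower). Of the 8, Cyp2b13 passed the filter only through Cre alfp and Cyp2a22 only through the deletion groups. The largest were Cyp4a31 at 3.53, Cyp2c40 at 1.87 and Cyp2a5 at 1.81, and Cyp2c50 at -6.09, Cyp2c54 at -5.69 and Cyp2b9 at -4.17. The Cyp2c40 call was lost with a pseudocount of 0.1 (2.13, SE 0.96, adjusted p 0.0902). The Cyp2a5 call was lost without triple null replicate 3 or Cre alfp replicate 2 or 3 (adjusted p 0.0634 to 0.0746) and with no filter (0.0653).

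Few members were called between FoxA3 null and lox. By limma, 1 member was called higher and 0 lower of 49 (2.04%, against 7.19% of all genes, 3.63% higher and 3.56% lower), and without the minimum difference 11 were higher and 0 lower, 22.4% and 0% against 21.7% and 13% of all genes. At an unadjusted p under 0.05 with no minimum difference, 16 were higher and 0 lower, 32.7% and 0% against 28.7% and 17.6% of all genes. The call was Cyp2u1, at 3.54, 2.18 and 4.44 RPKM in lox and 12.6, 11.1, 8.32 and 4.77 in FoxA3 nulls, a relative log2 difference of 1.08 (SE 0.27, adjusted p 0.00607); it was lost without lox replicate 2 (0.97 on the uncorrected scale). Leaving out FoxA3 null replicate 3 raised the count of higher members to 3. Across all 15 libraries, 1277 of 11500 genes (11.1%) separated lox and Cre alfp from FoxA3 null and triple null without overlap. None of the 49 members did. Both deletions lay apart from both undeleted groups for Cyp2c69, Cyp2a22, Cyp2b10, Cyp4f16 and Cyp2c70, and for 2.48% of all genes. Cyp2c69, Cyp2a22 and Cyp4f16 passed the filter only through the deletion groups, so this count is not read against that share. FoxA3 genotype and any other difference between these sides cannot be told apart.

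Whether the effect of deleting FoxA1 and FoxA2 differed between both settings was tested for all genes. The settings differ in FoxA3 and in the Cre driver, and the labels give neither the timing nor any virus for lox and Cre alfp, so FoxA3 cannot be told apart from these. The difference between both effects was called for 10 of 49 members, 1 higher and 9 lower (20.4%, against 6.82% of all genes, 3.28% higher and 3.54% lower). The 9 are Cyp2c50, Cyp2c54, Cyp2b13, Cyp2j9, Cyp2d40, Cyp2u1, Cyp2f2, Cyp3a11 and Cyp2c29, and Cyp4a31 is the higher one. Cyp2b13 passed the filter only through Cre alfp. For Cyp2c70, Cyp2b10, Cyp2c69 and Cyp2a22, called in both deletions, it was not called, at 0.04 (SE 0.33), -0.22 (SE 0.66), 0.35 (SE 0.49) and -0.98 (SE 0.59); these errors do not show that the effects are equal.

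Whole liver was tested in a separate fit, so its counts are not compared with those of hepatocytes. Between HNF4a control libraries and those labelled HNF4a null, 26 of 44 members tested were called lower and 4 higher (68.2%, against 14.5% of all 12434 genes tested, 8.58% higher and 5.95% lower). The median over all genes was 0.337, and differences below are relative to it; the member median was -2.43. Of the 26, Cyp2a12, Cyp2a22, Cyp2c38, Cyp2c44, Cyp2c50, Cyp2c54, Cyp2d40, Cyp2f2 and Cyp4a14 passed the filter only through the controls, and of the 4, Cyp2a4, Cyp2b9 and Cyp2b10 only through the null-labelled libraries, in each case where they are high. The counts and the median are therefore descriptions of the members tested. Leaving out either control leaves 1 control, assumed to vary like the other libraries, and lowered the count of members called lower. Cyp2c50, Cyp2c54, Cyp2c44, Cyp2c38, Cyp2d40, Cyp4a14 and Cyp2a22 then reached 1 RPKM in 1 library only and were no longer tested. Because Hnf4a RNA was higher in the null-labelled libraries, the direction is given by label.

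The losses took in 9 of 10 Cyp2c and 4 of 5 Cyp2d members tested, all except Cyp2c68 and Cyp2d22, where 5.95% of all genes were lower. Of these members, Cyp2c38, Cyp2c44, Cyp2c50, Cyp2c54 and Cyp2d40 passed the filter only through the controls, where they are high. Cyp2c50 was 166 and 140.2 RPKM in the controls and 0.0864, 0.205, 0.13 and 0.353 in the HNF4a-null-labelled libraries, a relative log2 difference of -7.35 (SE 0.13, adjusted p 5.08e-07). Cyp2c54, next to it, was 98.6 and 92.4 RPKM in controls against 0.0945, 0, 0.138 and 0.2 RPKM, a relative log2 difference of -6.78 (SE 0.11, adjusted p 5.08e-07). Because both passed the liver filter only through the controls, their fall here adds no support to that in triple nulls. Cyp2c29 was 598 and 483 RPKM in controls against 24.1, 19.3, 46.7 and 15.6 RPKM, a relative log2 difference of -4.75 (SE 0.40, adjusted p 0.000258), and Cyp2c44, Cyp2c37, Cyp2c70, Cyp2c67, Cyp2c38 and Cyp2c55 fell by 5.87 to 3.12. Cyp2c68, by contrast, was 24.9 and 38 in the controls and 27.3, 15.3, 32.6 and 38.2 RPKM in the HNF4a-null-labelled libraries, and was not called.

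Within Cyp2d the same split appeared. Cyp2d26 was 238 and 210.2 RPKM in controls against 1.1, 1.74, 1.38 and 3.12 RPKM, a relative log2 difference of -6.69 (SE 0.26, adjusted p 8.77e-06). Cyp2d10 was 329 and 295 RPKM in controls against 3.6, 3.81, 3.3 and 4.32 RPKM, a relative log2 difference of -6.38 (SE 0.11, adjusted p 5.08e-07). Cyp2d9 and Cyp2d40 fell by 6.24 and 5.74, while Cyp2d22 was 26.46 and 28.88 RPKM in the controls and 28.61 to 33.41 RPKM in the HNF4a-null-labelled libraries. Summed Cyp2d RPKM was 1110 ± 158 (SD, n = 2) and 43.8 ± 2.74 (n = 4).

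In the chromosome 7 cluster, members moved in opposite directions. Cyp2f2 was 271 and 283 RPKM in the controls and 0.267, 0.572, 0.311 and 2.99 in the HNF4a-null-labelled libraries, a relative log2 difference of -7.61 (SE 0.46, adjusted p 5.59e-05). Cyp2a12 was 298 and 252 RPKM in controls against 0.357, 0.858, 0.449 and 2.71 RPKM, a relative log2 difference of -7.50 (SE 0.40, adjusted p 3.15e-05). Cyp2a5 stayed at 828 and 599.5 RPKM in controls against 1137, 611, 805 and 573 RPKM without a call. Cyp2a4, Cyp2b9 and Cyp2b10 passed the filter only through the null-labelled libraries. Cyp2a4, the near-copy of Cyp2a5, rose from 0.232 and 0.287 to 154, 61.3, 104 and 93.4 RPKM, a relative log2 difference of 5.96 (SE 0.32, adjusted p 2.16e-05). Cyp2b9 rose from 0.0418 and 0.0854 to 81.6, 40.3, 92.4 and 86.7 RPKM, a relative log2 difference of 5.76 (SE 0.33, adjusted p 2.73e-05), and Cyp2b10 from 1.48 and 0.435 to 52.5, 29.4, 42.2 and 40.4 RPKM, a relative log2 difference of 4.11 (SE 0.28, adjusted p 5.59e-05). All 4 libraries of the second group lay above both controls for these 3 genes, and summed Cyp2b RPKM was 1.06 ± 0.676 (n = 2) and 117 ± 31.4 (n = 4). Cyp2a22 was lower by 1.38. This call was lost without the HNF4a-null-labelled library that had Cyp2a22 at 0.15 RPKM (-0.98 on the uncorrected scale).

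Cyp3a11 was the most abundant member in the liver controls and fell to a small part of that level. It was 2705 and 2005 RPKM in the controls and 23.2, 43.1, 33.3 and 66.5 in the HNF4a-null-labelled libraries, a relative log2 difference of -6.21 (SE 0.38, adjusted p 6.38e-05), while its neighbour Cyp3a25 was 501 and 379 RPKM in controls against 279, 184, 263 and 355 RPKM and was not called (adjusted p 0.0502). Cyp2e1 was 1704 and 1623 RPKM in controls against 1936, 2067, 1693 and 1672 RPKM and was not called, while its share of all member RPKM went from 17.9% and 20.3% to 46.8% to 59.2%. The summed RPKM of all members was 8012 and 9515 in the controls and 3355 to 4136 in the HNF4a-null-labelled libraries. Cyp1a2 was 119.6 and 141 RPKM in controls against 96, 66.3, 102 and 62.5 RPKM. It was not called, as its uncorrected log2 difference was -0.70, although the relative one was -1.03 (limma, adjusted p 0.0391).

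Further members of families 2 to 4 were called lower. Cyp4v3 fell by 3.19, Cyp3a59 by 3.00, Cyp4a10 by 2.85, Cyp4f14 by 2.84, Cyp4a14 by 2.50, Cyp2j5 by 2.48, Cyp4a32 by 2.38, Cyp2u1 by 2.21 and Cyp2r1 by 1.61 on the relative log2 scale. Cyp2j6 was called higher at an uncorrected 1.15, which is 0.82 relative to the median. This call was lost when libraries were scaled to equal medians or quantiles. Of the 11 members lower in triple nulls, 9 were also lower here, which is 9 of the 26; 26 of all 44 members tested and 5.95% of all genes were lower. Of the 9, Cyp2c50, Cyp2c54, Cyp2d40, Cyp2f2 and Cyp4a14 passed the liver filter only through the controls, and the direction rests on labels that Hnf4a RNA goes against, so this overlap supports nothing further. Of the 7 higher in triple nulls, Cyp2b10 was higher here, Cyp4f14 and Cyp2a22 were lower, Cyp2c68 and Cyp4a31 were not called and Cyp2c40 and Cyp2c69 were not tested.

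Markers of other cells moved with some groups. Cholangiocyte markers were called higher for 6 of 7 tested in the HNF4a-null-labelled libraries, with sums of 138 to 236 RPKM against 17.9 to 18.7 RPKM. Neutrophil and monocyte markers were called higher there for 2 of 3 tested and Kupffer and macrophage markers for 1 of 8, and 1 of 3 erythroid markers was called lower. No endothelium, stellate or lymphocyte marker tested in liver was called by limma. Over all genes tested in liver, 8.58% were called higher and 5.95% lower. In triple nulls, 3 of 8 sinusoidal endothelium markers and 2 of 3 stellate and fibroblast markers tested were called lower than in FoxA3 nulls (summed 7.28 to 13.9 against 24.2 to 37.9 RPKM, and 6.5 to 23.4 against 25 to 34.2 RPKM). S100a8 and S100a9, the neutrophil and monocyte markers tested, were higher there, with list sums of 9.66 to 111 against 0.786 to 2.05 RPKM. Over all genes, 4.17% were called higher and 3.95% lower in triple nulls. Erythroid markers summed to 33 to 47.3 RPKM in FoxA3 nulls and 5.94 to 21.7 RPKM in triple nulls, and to 81.3 to 90.8 RPKM in lox and 14.9 to 29.2 RPKM in Cre alfp, without overlap in either pair. Of the 3 tested, Hba-a1 and Hbb-b1 were called higher and Alas2 lower in triple nulls, and Hbb-b1 higher and Alas2 lower in Cre alfp. In Cre alfp against lox, 1 of 3 cholangiocyte markers, Spp1, was also called lower, and none of the Kupffer cell, endothelium, stellate or neutrophil markers tested was called by limma or had an unadjusted p under 0.05. Over all genes, 1.29% were called higher and 1.1% lower in that comparison. No lymphocyte marker reached the filter in hepatocytes. Their part in the P450 results was not tested.

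Genes that serve or control P450 enzymes were followed beside the members. Of 14 tested redox partners and haem synthesis genes, 3 were called higher in triple null against FoxA3 null, where 4.17% of all genes were. They were the cytochrome b5 reductase gene Cyb5r3 at 1.13 and the haem synthesis genes Cpox at 1.13 and Alad at 1.03. Of 18 regulators of P450 genes tested by limma, 0 were called in triple null against FoxA3 null, where 8.11% of all genes were. At an unadjusted p under 0.05 with no minimum difference 3 were higher and 1 lower, where 23.8% and 17.5% of all genes were. In Cre alfp, Nr1i3, which encodes CAR, was the 1 regulator called, at 147.5, 145.6 and 156.2 RPKM in lox and 417.6, 247.7, 300.5 and 361.5 RPKM in Cre alfp, a log2 difference of 1.12 (SE 0.15, adjusted p 0.00051). In triple nulls Nr1i3 was 168.1 to 189.6 RPKM, against 123.5 to 155.8 RPKM in FoxA3 nulls.

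In liver, Nr1i3 was 53.98 and 48.5 RPKM in the controls and 0.545 to 1.087 RPKM in the HNF4a-null-labelled libraries, a relative difference of -5.14. Of the regulators, Ppara at -2.52, Cebpa at -1.77 and Bcl6 at -1.55 were also lower, and Hnf4a and Nfe2l2 were higher. Por, the reductase, was higher by 1.27 and Cyb5r3 lower by 2.08. Among 12 targets of CAR and PXR, 6 were called higher and 3 lower, where 8.58% and 5.95% of all genes were. The list thus did not move as 1 group. Cyp2b10 was among the higher, and the 3 lower were Cyp3a11, Cyp2c29 and Cyp2c55.

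Sex-biased P450 genes were followed because the raised members include several of them, so their count restates those calls and supports nothing beyond them. All 21 libraries had Y-linked Ddx3y at 14.94 to 32.92 RPKM and Xist at 0.3631 RPKM or less. Of 9 female-biased P450 genes listed, 5 were tested in hepatocytes: 4 were called higher in Cre alfp (Cyp2b9, Cyp2b13, Cyp2c40 and Cyp2c69) and 2 in triple nulls (Cyp2c40 and Cyp2c69). Of these, Cyp2b13 passed the filter only through Cre alfp and Cyp2c69 only through the deletion groups. The shares of all genes called higher were 1.29% in Cre alfp and 4.17% in triple nulls. The Cyp2b9 and Cyp2c40 calls in Cre alfp were lost under the alternatives given with their values above. In liver Cyp2a4 and Cyp2b9 alone were tested, and both passed the filter only through the libraries labelled null, where they are high. Of the female-biased liver genes outside the P450s, Sult3a1 and Acot3 were tested in hepatocytes: neither was called in triple nulls against FoxA3 nulls, and Sult3a1, which passed the filter only through Cre alfp, was called higher there at 2.44. In liver 2 genes of this list were tested, and both were called higher in the null-labelled libraries. Male-biased liver genes outside the P450s (Elovl3, Slco1a1, Hsd3b5, Mup20, Selenbp2 and Bcl6) were called lower for 5 of 6 in triple nulls, 3 of 6 in Cre alfp and 6 of 6 in liver. The shares of all genes called lower were 3.95%, 1.1% and 5.95% in the same order. The male-biased P450 genes did not all follow: in triple nulls Cyp2u1 was lower, Cyp4a12a and Cyp4a12b were higher, and Cyp2d9 and Cyp7b1 were not called. In Cre alfp 1 of the 5 was called lower and 0 higher, whereas in liver all 5 were lower.

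P450 genes of other families changed too. In triple nulls Cyp8b1, which makes cholic acid, fell by 5.39 and Cyp27a1, a bile acid enzyme, fell by 1.60, while the steroid hydroxylase Cyp17a1 rose by 4.43 and the retinoic acid hydroxylase Cyp26a1 by 2.11. These were the 4 called among 11 tested, where 8.11% of all genes were called. PPARA targets were called higher for 3 and lower for 4 of 14 tested, where 4.17% and 3.95% of all genes were. Genes typical of hepatocytes near the central vein were called higher for 3 and lower for 3 of 16. The median difference of these 16 was 0.57, against 0.045 over all genes, and the 3 lower ones were Cyp2c50, Cyp2c54 and Cyp3a11. Among 10 periportal genes 3 were lower, of which Cyp2f2 is a member.

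The authors' deposited tables give the members in development. In hepatoblasts against adult, 46 of 58 listed members were lower at adjusted p under 0.05 and 2 higher, Cyp1b1 and Cyp2s1, where 37.9% of all genes listed were lower and 41.3% higher. In the authors' deposited table of newborn against adult, 36 of 57 were lower and 12 higher, where 31.7% and 31.6% of all were. Cyp2c50 and Cyp2c54 were lower in that table, by log2 fold changes of -4.26 and -4.37. Of the other members lower in triple nulls, Cyp2d40, Cyp2u1, Cyp2c70, Cyp2j9, Cyp2f2 and Cyp3a11 were also lower in the authors' deposited newborn table, at -3.46 to -1.22, Cyp2g1 was higher at 1.83, and Cyp4a14 and Cyp4a32 had 1.37 and -1.44 at adjusted p of 0.172 and 0.133. In that deposited table of the authors Cyp2c69, Cyp2b9, Cyp2b13, Cyp2a22 and Cyp4a31 were higher, at 4.26, 5.20, 5.11, 6.80 and 2.77. Here Cyp2b9 and Cyp2b13 were called higher in Cre alfp but not in triple nulls. Among members called higher in triple nulls, Cyp4f14 was lower in the authors' deposited newborn table at -1.68, Cyp2c68 was higher at 0.74, and Cyp2c40 had 2.66 at an adjusted p of 0.178. In the authors' deposited hepatoblast table Cyp2c69, Cyp2b9 and Cyp4a31 were lower, at -7.70, -2.68 and -10.67, as were Cyp2c40, Cyp2c68 and Cyp4f14 at -8.00, -5.06 and -4.83. Cyp2a22 and Cyp2b13 had -1.47 and -4.45 there at adjusted p of 0.206 and 0.138 in the authors' deposited table. Cyp2e1 was lower in both deposited tables, at -4.95 in hepatoblasts and -1.55 in newborns, while Cyp2b10 was lower in both, at -4.10 and -1.10. The adult reference libraries of these tables are not stated, so no test was made against the groups here. For triple null against FoxA3 null, all 18 members called here have the same sign and an adjusted p under 0.05 in the authors' deposited table, and so do all 30 in liver and all 17 in triple null against lox. For triple null against Cre alfp all 14 have the same sign in the authors' deposited table and 13 an adjusted p under 0.05; the exception is Cyp3a59, at 0.0811.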

How the data were processed

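RNA was measured in 21 libraries, 15 of hepatocytes and 6 of whole liver. The authors deposited a matrix of RPKM values with 33773 rows; the submitters' processing notes name SAMtools, Cufflinks 2.2.1, DESeq2 and mouse build mm9 without roles, and the annotation and counting are not given in the sources used here. The matrix holds 9 further columns that match no sample here and were not used. The authors also deposited comparison tables of log2 fold changes with p-values; the sign of the table of triple null against lox was turned, and the p-values of that of triple null against Cre alfp were adjusted here. Of the deposited RPKM values above 0, 2.9% are under 1e-06.

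Differences of log2(RPKM + 1) were tested with limma 3.58.1 (lmFit, eBayes with trend; R 4.3.3). All 15 hepatocyte libraries entered 1 fit (11500 genes at 1 RPKM or more in at least 3 libraries), and the 6 liver libraries another (12434 genes, at least 2 libraries). Adjustment was Benjamini-Hochberg over all genes tested, and calls needed an adjusted p under 0.05 and a difference of at least 1. RPKM is relative to each library's total, so a change in a few very abundant genes shifts the others. The fits were also tried on simulated data with independent normal noise and known changes in genes well above the filter. This did not cover shared reads or members near 1 RPKM, and the outcome is not given here. Members and gene lists were chosen with earlier results of these data known.

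Named genes were Cyp2e1, Cyp2a4 and Cyp2b9, the 10 members highest on average, members called in either deletion, in liver or in the test of the difference, up to 3 each way in other comparisons, up to 4 called genes per list, and the targeted genes. Cyp2d22, Cyp2c39, Cyp4b1 and Cyp4f16 were named after their values were seen. Alternatives were another pseudocount, other filters and scalings, no minimum difference, only the groups compared, a replicate block and leaving out each library. Same-numbered libraries of different groups correlated in their deviations by -0.36 to 0.17, so numbers were not taken to pair samples. Binding and accessibility data were not analysed here, and female-biased liver genes outside the P450s are not reported in full.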

Additional observations from a re-analysis of the deposited data

Results flagged for a closer look

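The effect of deleting FoxA1 and FoxA2 differed between the triple nulls (set against FoxA3 nulls) and Cre alfp (set against lox), by limma's test of the difference itself, for 10 members. The 2 settings differ in FoxA3 and Cre driver, and the timing and any virus are not given for lox and Cre alfp, so these cannot be told apart. The effect was lower in the first for Cyp2c50 (-6.01), Cyp2c54 (-5.41), Cyp2b13 (-2.97), Cyp2j9 (-2.06), Cyp2d40 (-1.87), Cyp2u1 (-1.75), Cyp2f2 (-1.43), Cyp3a11 (-1.28) and Cyp2c29 (-1.18), and higher for Cyp4a31 (2.95), all as log2 differences. Cyp2b13 passed the filter only through Cre alfp, where it is high.

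Single libraries stood apart from the other 3 of their group in 10 of 143 groups of 4, where chance gives about 1 in 20. In the triple null, replicate 4 had Cyp2b10 at 62.5 RPKM against 15.7 to 23.2, and replicate 3 had Cyp2j6 at 32.9 RPKM against 26.9 to 27.1. FoxA3 null replicate 1 had Cyp2c70 at 298 RPKM against 215 to 226 and Cyp4v3 at 291 RPKM against 167 to 183. Cre alfp replicate 1 had Cyp3a59 at 37.1 RPKM against 10.9 to 11.6, Cyp4a32 at 21.3 RPKM against 8.46 to 9.39 and Cyp2j5 at 141 RPKM against 135 to 136. Cre alfp replicate 2 had Cyp2c70 at 143 RPKM against 67.1 to 80.0, and replicate 4 had Cyp1a2 at 527 RPKM against 340 to 350. Among the libraries labelled HNF4a null, whose columns carry no replicate numbers, 1 had Cyp2f2 at 2.99 RPKM against 0.267 to 0.572.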

How the results depend on the processing

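Without the minimum difference, members called in triple null against FoxA3 null were 12 higher and 17 lower, in triple null against Cre alfp 10 and 14, 12 were lower in triple null against lox, 11 higher in FoxA3 null against lox, and 3 higher in the difference between both deletion effects. Of all genes, 17.4% and 12.3%, 26.9% and 14.4%, 14.8%, 21.7% and 8.25% passed in the same comparisons and directions. In FoxA3 null against lox, a pseudocount of 0.1 gave 1 lower and quantile normalization 2 higher. Other counts under these settings, median scaling and other filters stayed within 1.5 times the reported one. Leaving out each library in turn gave 6 to 8 higher and 9 to 12 lower in triple null against FoxA3 null, 9 to 10 and 5 to 8 against lox, and 4 to 7 and 6 to 9 against Cre alfp. It gave 4 to 6 higher and 1 to 2 lower in Cre alfp against lox, 1 to 3 and 0 to 0 in FoxA3 null against lox, 1 to 2 and 9 to 10 for the difference between effects, and 4 to 5 and 19 to 26 in liver, where 1 control left fewer members to test. Of 84 single differences followed for 39 members, Cyp2e1 in liver reversed to -0.13 with median scaling. The uncalled Cyp2a4 difference in Cre alfp against lox, -0.02, turned to 0.27, 0.23 and 0.33 without Cre alfp replicate 2, Cre alfp replicate 3 and lox replicate 1, within a range of -0.46 to 0.33 over single libraries left out. With the replicate number as a block, Cyp4a32 in the triple null (-1.22, adjusted p 0.0563) and Cyp2b9 in Cre alfp (2.38, adjusted p 0.0909) lost their calls by limma, and the other 51 of 53 differences followed, called or not, stayed on their side of the threshold in the same direction; pairs did not deviate together. No paired analysis was possible for liver because its columns carry no replicate numbers. The causes were not tested. Depth limits members near 1 RPKM, most of all in liver, the shallowest libraries.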
